A study of Mus musculus with 4 samples.

Results

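Chemokines are small secreted or membrane-tethered proteins that steer leukocytes through tissue, and chemokine receptors are the G protein-coupled receptors that read them. The set described here held 50 genes of the 22180 compared, 33 ligands and 17 receptors, taken by gene symbol (names that begin with Ccl, Cxcl, Xcl, Cx3cl, Ccr, Cxcr, Xcr or Cx3cr and a digit). Cxcl17 and the receptor-like gene Ccr1l1 were left out by that rule, and so were probe sets named for several genes. Symbols alone decided which genes entered, though the set was chosen with earlier results of these data known. The probe set standing for each gene was the one with the highest mean over the 4 arrays. The samples were stomach tissue of mice of the FVB strain aged 1 year, 2 labelled Hdc-/- and 2 labelled Hdc+/+, each hybridised to 1 Affymetrix array. Hdc encodes histidine decarboxylase, which makes histamine. The labels name the 2 samples of each genotype as biological replicates without saying whether each is 1 animal. The p-values therefore cover only the spread between these samples, which may be technical.

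Most chemokines act through 1 or a few receptors. Inflammatory chemokines are induced in injured or infected tissue and draw in monocytes, neutrophils, eosinophils and effector T cells, while homeostatic chemokines are made steadily by stromal, endothelial and epithelial cells and place lymphocytes in lymphoid tissue and mucosa. In the stomach, epithelial and stromal chemokines help to set which leukocytes reside in the mucosa. In bulk tissue such as this, fewer cells of a type and less RNA per cell cannot be told apart.

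All values are log2 probe set values, all differences are Hdc-/- minus Hdc+/+, and errors of differences are moderated standard errors (SE, n = 2 per group) from limma, which also gave every p. The medians of the 4 arrays lay between 4.05 and 4.15, and the number of arrays limits the precision of each value. An exact permutation test of 1 gene with 2 arrays against 2 cannot give a p below 0.333. The gastric identity of the tissue was plain, since Atp4a, the parietal cell proton pump gene, read between 10.42 and 11.08 and Gkn1, a pit cell gene, between 12.81 and 13.01 on the 4 arrays. Hdc itself read 3.77 and 4.06 on the Hdc-/- arrays, against 3.99 and 3.82 on the Hdc+/+ arrays, a difference of 0.01 (SE 0.19). Its mean over the 4 arrays stood at percentile 33.7 of genes, so it was low in both genotypes. Hdc thus gave no check on the genotype labels, on which all directions depend. The sources used here do not say whether the Hdc probes lie in the deleted part. The arrays also differed in other tissues. The 11 hepatocyte markers measured, of 12 listed, averaged 4.39 and 4.495 on the Hdc-/- arrays, against 8.15 and 9.96 on the Hdc+/+ arrays, and the 7 pancreatic acinar markers of 10 averaged 4.51 and 4.49, against 4.23 and 8.70. No marker was listed at 0. The part of these tissues in the chemokine values was not tested.

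No chemokine or receptor gene passed the test over all genes. By limma with Benjamini-Hochberg adjustment 0 of the 50 members passed in either direction at 0.05, where 0.00451% of all genes passed as higher and 0% as lower. At an unadjusted p under 0.05, 5 members read higher, Ccl8, Ccl11, Ccl2, Cxcl14 and Cxcr4, and 1 read lower, Cxcl13. The shares over all genes were 3.68% higher and 4.87% lower. The values of both groups did not overlap for 11 members that read higher (22%) and 4 that read lower (8%), against 21.5% and 17.6% of all genes, so the higher share was close to that background and the lower share was below it. The median difference was 0.05 over the ligands and 0.07 over the receptors, against 0.02 over all genes. The count of 5 was 3 without Hdc-/- array 1, 8 without Hdc-/- array 2 and 2 without Hdc+/+ array 1, and the count of 1 was 3 without Hdc+/+ array 1 and 0 without Hdc+/+ array 2.

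**Figure D1:**
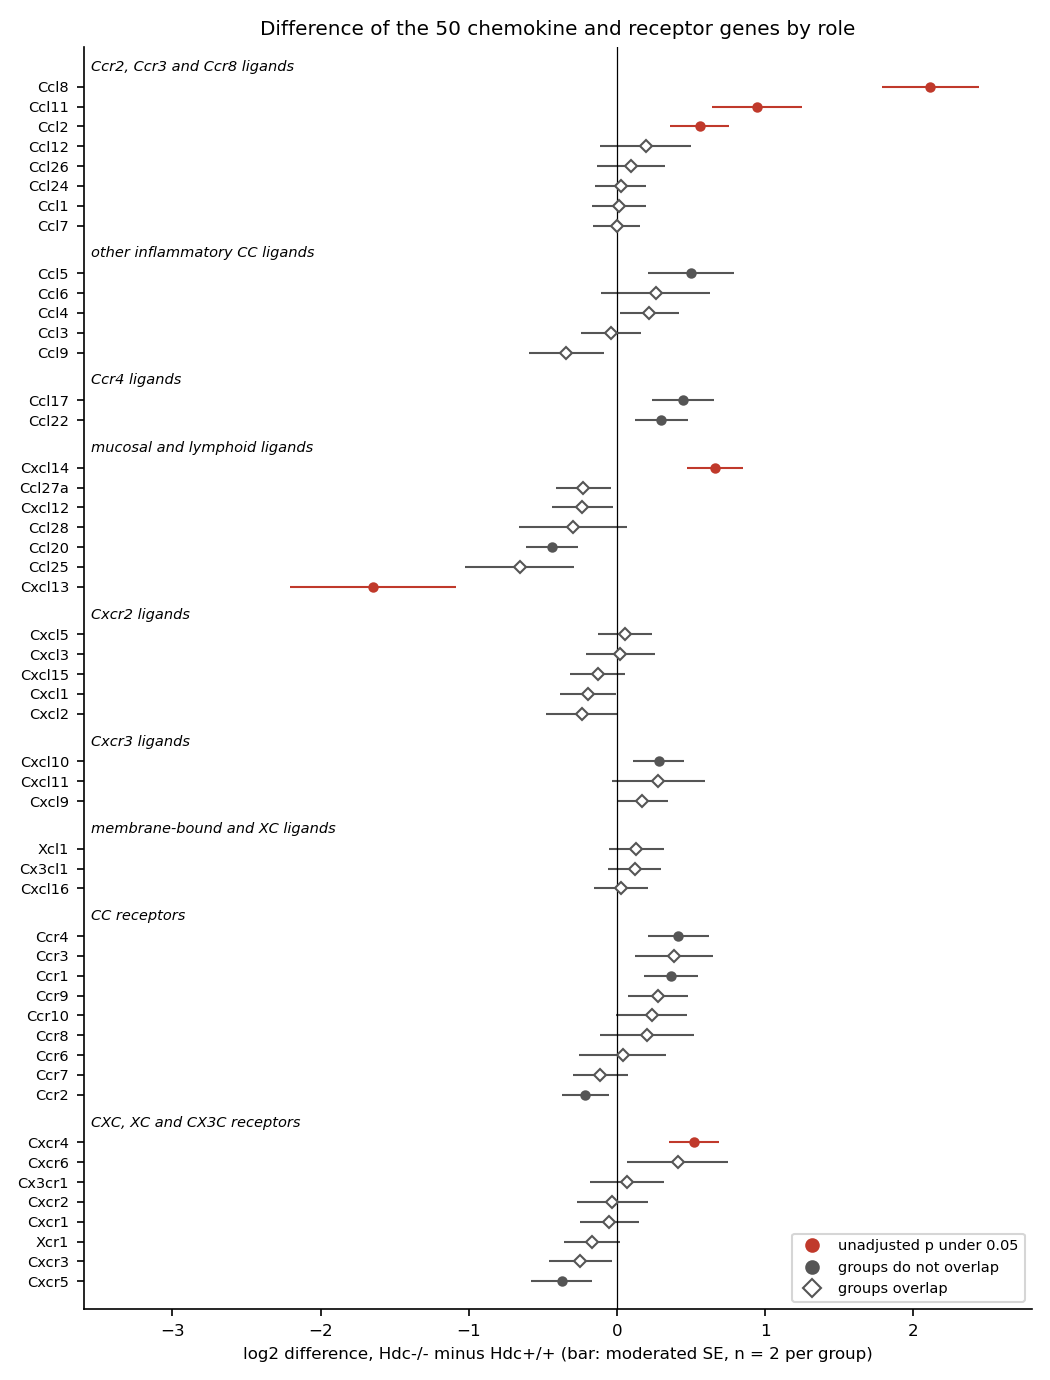
Log2 difference (Hdc-/- minus Hdc+/+, x axis) of all 50 genes, grouped by role. Points are differences, bars are moderated SE (n = 2 per group), red marks an unadjusted p under 0.05, filled circles mark groups that do not overlap and open diamonds groups that do. Ccl8 (2.11) and Cxcl13 (-1.65) lie farthest from 0, and most others lie within 0.5 of it.

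Among the ligands of the receptors Ccr2, Ccr3 and Ccr8, Ccl8, Ccl11 and Ccl2 read higher and the other 5 differed by 0.00 to 0.19. These 8 ligands draw in monocytes, eosinophils and some T cells, and 3 of them read higher without overlap of the groups while 0 read lower, where 21.5% and 17.6% of all genes did so. Their median difference was 0.14. Ccl8, which in the mouse acts mainly on Ccr8, read 6.27 and 5.50 on the Hdc-/- arrays, against 4.05 and 3.48 on the Hdc+/+ arrays. Both Hdc-/- arrays lay well above both Hdc+/+ arrays, the lowest of the first 1.45 above the highest of the others. The difference was 2.11 (SE 0.32), or 4.33-fold, with an unadjusted p of 0.00081 and a limma adjusted p of 0.256. It ran from 1.73 without Hdc-/- array 1 to 2.50 without Hdc-/- array 2.

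Ccl11, the eosinophil attractant eotaxin, read 7.88 and 7.16 on the Hdc-/- arrays, against 6.33 and 6.82 on the Hdc+/+ arrays. The difference was 0.95 (SE 0.30), or 1.93-fold, with an adjusted p of 0.492 by limma. The groups did not overlap, but the second array of each genotype stood only 0.34 apart, and the difference was 0.59 without Hdc-/- array 1 and 1.31 without Hdc-/- array 2. Ccl2, the main monocyte attractant, read 4.52 and 4.17 on the Hdc-/- arrays, against 3.91 and 3.67 on the Hdc+/+ arrays, a difference of 0.56 (SE 0.20), or 1.47-fold, with an adjusted p of 0.542 by limma.

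The other 5 ligands of that group gave no such separation. Ccl7, a monocyte attractant, read 4.59 and 4.65 in both genotypes, a difference of 0.00 (SE 0.16). Ccl12, an inflammatory monocyte attractant found in the mouse, differed by 0.19 (SE 0.31), and its Hdc+/+ arrays stood 0.82 apart. Ccl1, a further Ccr8 ligand, differed by 0.01 (SE 0.18), and the eotaxin-related genes Ccl24 and Ccl26 by 0.02 (SE 0.17) and 0.09 (SE 0.23).

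The 6 genes Ccl2, Ccl7, Ccl11, Ccl12, Ccl8 and Ccl1 stand in that order in 1 cluster on mouse chromosome 11 in the gene table used here (GRCm38.p6). Neighbours in the cluster thus read unlike each other, with Ccl11 and Ccl8 at 0.95 and 2.11 on either side of Ccl12 at 0.19, and with Ccl7 and Ccl1 near 0. Differences in this cluster ran from 0.00 to 2.11 with a median of 0.38. The promoter of Ccl8 is shown because Ccl8 had the largest difference of the set. It is the RefSeq sequence at chr11:82114935-82115234 (GRCm38.p6, plus strand), from 250 bases before to 50 bases after the start of the gene, written 5′ to 3′ along the gene, and the capitals mark a match to the TATA box letters TATAAA.
Ccl8 promoter: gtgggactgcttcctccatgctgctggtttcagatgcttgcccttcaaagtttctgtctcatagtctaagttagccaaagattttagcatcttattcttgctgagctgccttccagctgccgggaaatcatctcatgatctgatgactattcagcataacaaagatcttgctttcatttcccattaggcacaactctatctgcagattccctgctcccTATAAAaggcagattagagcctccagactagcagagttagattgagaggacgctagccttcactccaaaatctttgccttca
That match begins 32 bases before the start site. Of the letters searched on both strands (TATAAA, TTCNNNGAA of the interferon-gamma activation type, GAAANNGAA of the interferon-stimulated response core type, GGGNNTTCC of the kappaB type with 9 bases, and TGANTCA of the AP-1 type), it was the 1 match in this window. TATAAA was held by 13.6% of all 32851 promoters in the table and by 10 of the 37 members that have an entry. The first share counts every entry of the table, and the other only the first entry of each member. Ccl2 and Ccl11 have no entry there.

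The receptors of these ligands did not show the same picture. Ccr2, the monocyte receptor for Ccl2, Ccl7 and Ccl12, read 4.37 and 4.29 on the Hdc-/- arrays, against 4.51 and 4.59 on the Hdc+/+ arrays, a difference of -0.22 (SE 0.16). The groups did not overlap, in the direction opposite to Ccl2. Ccr3, the eosinophil receptor for Ccl11, read 2.89 and 2.19 on the Hdc-/- arrays, against 2.21 and 2.11 on the Hdc+/+ arrays (0.38, SE 0.26), and the second Hdc-/- array lay within the Hdc+/+ range. Ccr8 read 3.87 and 3.01, against 3.08 and 3.40 (0.20, SE 0.32), so its 2 Hdc-/- arrays lay on both sides of the Hdc+/+ arrays. Ccr3 and Ccr8 were both highest on Hdc-/- array 1.

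Markers of cells that these chemokines attract were read on the same arrays, and none of them passed limma's test over all genes. Counts without overlap, here and for the other lists, stand against 21.5% higher and 17.6% lower over all genes. Of 6 eosinophil markers measured, of 8 listed, 5 read higher without overlap and 0 lower, and their mean level was 4.28 and 3.91 on the Hdc-/- arrays, against 3.74 and 3.52 on the Hdc+/+ arrays. Of the 20 macrophage and monocyte markers 7 read higher without overlap and 4 lower, with 9 differences above and 11 below 0 and mean levels of 5.43 and 5.48, against 5.26 and 5.58. The 11 mast cell markers averaged 6.41 on Hdc-/- array 1 and 4.45 on Hdc-/- array 2, against 4.59 and 4.76 on the Hdc+/+ arrays. Their part in the Ccl8 and Ccl11 values was not tested.

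**Figure D2:**
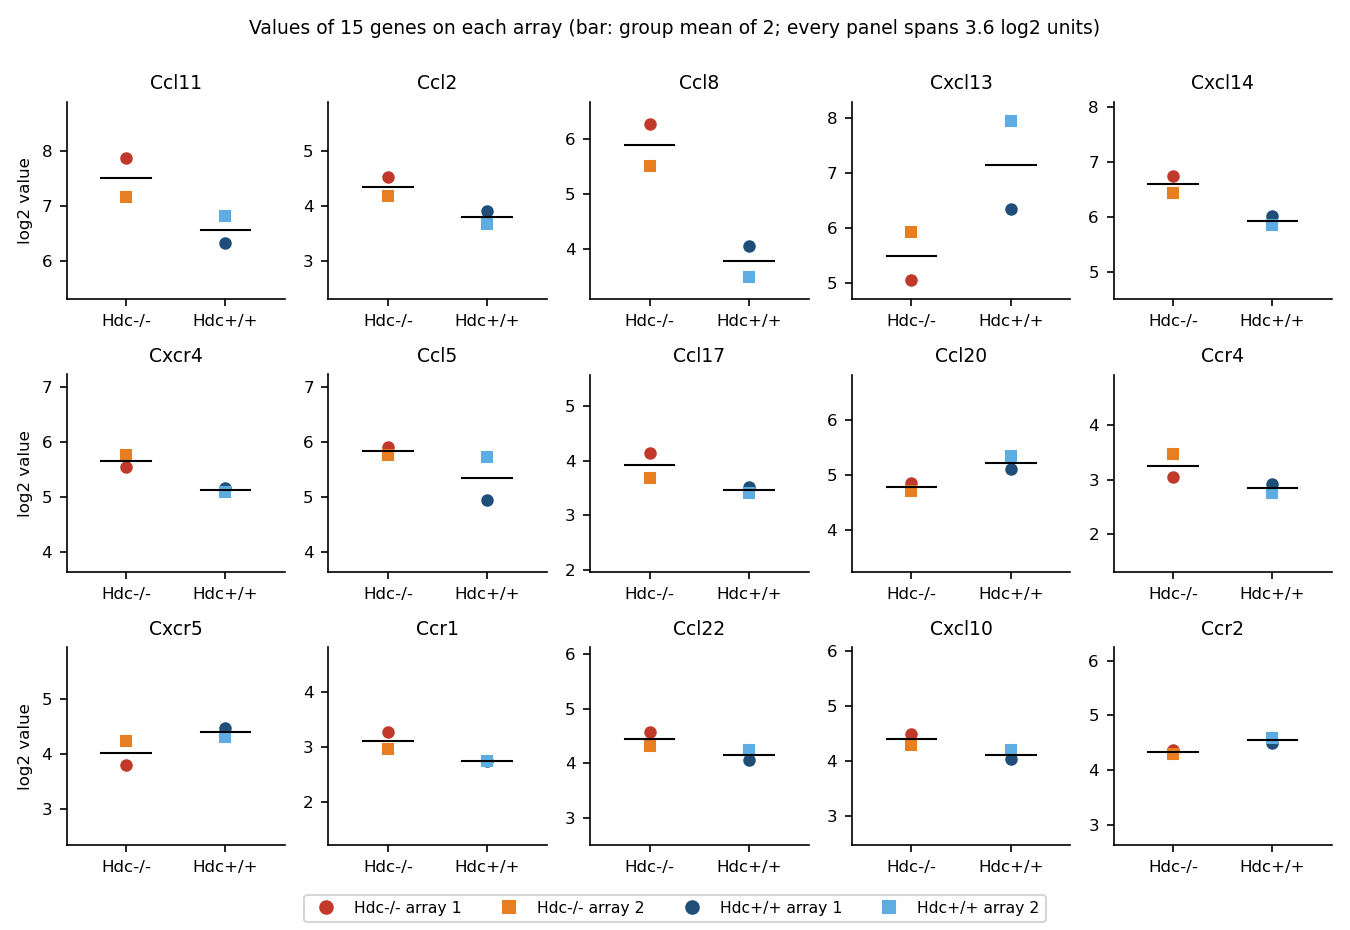
Log2 values (y axis) of the 15 members whose groups do not overlap, 1 panel per gene, with 1 point per array and a bar at each group mean (n = 2). Panels are centred on each gene and span the same number of log2 units, so the vertical distances can be compared between panels. Ccl8 and Cxcl13 show the largest differences between group means, with the Hdc+/+ arrays of Cxcl13 standing 1.59 apart. Ccl5 shows 1 Hdc+/+ array just under the Hdc-/- arrays.

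The other inflammatory CC ligands and the ligands of Ccr4 lay mostly on the higher side with small differences. Ccl5, made by T and NK cells, read 5.92 and 5.76 on the Hdc-/- arrays, against 4.94 and 5.74 on the Hdc+/+ arrays. Its groups parted by only 0.02, between Hdc-/- array 2 and Hdc+/+ array 2, and the difference of 0.50 (SE 0.29) was 0.10 without Hdc+/+ array 1 and 0.90 without Hdc+/+ array 2. On the same arrays the 17 T and NK cell markers measured, of 21, averaged 4.33 and 4.22 in Hdc-/-, against 3.94 and 4.08 in Hdc+/+, with 8 higher and 1 lower without overlap; their part in the Ccl5 value was not tested. Ccl3 and Ccl4, the macrophage inflammatory protein genes, differed by -0.04 (SE 0.20) and 0.22 (SE 0.20). Ccl6 and Ccl9, myeloid chemokines of rodents, differed by 0.26 (SE 0.37) and -0.34 (SE 0.25). Ccr1, a receptor for several of these ligands on monocytes and neutrophils, read 3.28 and 2.96 on the Hdc-/- arrays, against 2.76 and 2.75 on the Hdc+/+ arrays, a difference of 0.37 (SE 0.18, adjusted p = 0.641 by limma) that was 0.21 without Hdc-/- array 1.

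The 2 ligands of Ccr4 and the receptor itself all read higher without overlap. Ccl17, made by dendritic cells and a guide of type 2 helper T cells, read 4.13 and 3.69 on the Hdc-/- arrays, against 3.53 and 3.40 on the Hdc+/+ arrays, a difference of 0.44 (SE 0.21). Ccl22, its partner ligand from macrophages and dendritic cells, read 4.57 and 4.32, against 4.06 and 4.24, a difference of 0.30 (SE 0.18). Ccr4, found on type 2 helper and regulatory T cells, read 3.05 and 3.46, against 2.91 and 2.76, a difference of 0.41 (SE 0.20). The limma adjusted p of these 3 genes lay between 0.623 and 0.697, and the higher share without overlap over all genes was 21.5%. Ccl22, Cx3cl1 and Ccl17 lie close together on mouse chromosome 8, and Cx3cl1 between them differed by 0.12 (SE 0.18) with groups that overlap. Without Hdc-/- array 1 the differences were 0.23 for Ccl17 and 0.18 for Ccl22, and without Hdc-/- array 2 Ccr4 stood at 0.21.

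Among mucosal and lymphoid ligands, 6 of 7 differences lay below 0, and the group median was -0.30. Cxcl13, which draws B cells into follicles, read 5.06 and 5.93 on the Hdc-/- arrays, against 6.35 and 7.94 on the Hdc+/+ arrays. The groups did not overlap, but the Hdc+/+ arrays stood 1.59 apart, the widest gap within a genotype of any member. The difference was -1.65 (SE 0.56), a level 3.13-fold higher in Hdc+/+, with an unadjusted p of 0.0282 and a limma adjusted p of 0.522. It was -0.85 without Hdc+/+ array 2 and -2.44 without Hdc+/+ array 1. Cxcr5, the B cell receptor for Cxcl13, read 3.80 and 4.23 on the Hdc-/- arrays, against 4.47 and 4.31 on the Hdc+/+ arrays, a difference of -0.37 (SE 0.21, adjusted p = 0.67 by limma). It lay in the same direction as its ligand, and it was -0.16 without Hdc-/- array 1 and -0.59 without Hdc-/- array 2. The B cell surface gene Ms4a1 read 2.96 and 3.36, against 3.55 and 4.61, the highest value again on Hdc+/+ array 2. The B cell genes Cd79a, Cd79b, Cd22, Pax5 and Fcrla had groups that overlapped. Over the 12 B and plasma cell markers measured, of 13, 5 read higher without overlap and 1, Ms4a1 itself, lower. The 5 were Pou2af1, Xbp1, Tnfrsf17, Mzb1 and Sdc1, so none of the B cell genes just named was among them. The mean level of the 12 was 4.87 and 4.75, against 4.47 and 4.79.

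The promoter of Cxcl13 is shown as that of the member lowest in Hdc-/- relative to Hdc+/+. It lies at chr5:95956689-95956988 (GRCm38.p6, plus strand, RefSeq), drawn and marked as for Ccl8.
Cxcl13 promoter: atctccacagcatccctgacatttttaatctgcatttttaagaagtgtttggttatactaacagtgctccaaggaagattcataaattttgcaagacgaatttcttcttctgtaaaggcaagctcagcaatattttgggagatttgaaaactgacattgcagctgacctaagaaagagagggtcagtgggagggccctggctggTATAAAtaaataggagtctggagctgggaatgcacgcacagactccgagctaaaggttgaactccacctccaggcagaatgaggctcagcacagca
Its TATAAA match begins 46 bases before the start site, and none of the other letters searched occurs in this window.

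Ccl21, the ligand of Ccr7 that lymphatic vessels and lymphoid stroma make to guide dendritic cells and T cells, could not enter the set of 50, because every probe set for it carries the symbols of several near-identical genes (Ccl21a, Ccl21b, Ccl21c and others). Their 9 probe sets were read beside the set from a limma fit over all 41345 probe sets, chosen for description after their values were seen. They held 5 distinct sets of values, since several repeat the same values on every array, so they are not independent measurements. Across them the values ran from 5.92 to 6.60 on the Hdc-/- arrays, against 7.42 to 7.96 on the Hdc+/+ arrays. In each probe set both Hdc-/- arrays lay below both Hdc+/+ arrays, and the Hdc+/+ arrays nearly coincided. The differences ran from -1.51 to -1.34, with unadjusted p from 0.000405 to 0.00108 and limma adjusted p from 0.321 to 0.377. Over all probe sets 0% passed as lower, 4.04% were lower at an unadjusted p under 0.05 and 16.7% were lower without overlap. With 1 array left out the differences ran from -1.63 to -1.16. Which Ccl21 gene gave the signal cannot be told, and whether all samples carry the same copies of these genes was not tested.

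Ccr7, the receptor of Ccl21 and Ccl19, read 5.09 and 4.78 on the Hdc-/- arrays, against 5.12 and 4.97 on the Hdc+/+ arrays (-0.11, SE 0.19), and its groups overlapped. The 13 probe sets shared by Ccl19 and related genes differed by -0.45 to 0.04, with 0 at an unadjusted p under 0.05. They held 9 distinct sets of values, of which 3 were lower and 0 higher without overlap. The 11 probe sets shared by Ccl27 genes differed by -0.86 to 0.04. They too held 9 distinct sets of values, of which 7 were lower and 0 higher without overlap. By limma 1 of them had an unadjusted p of 0.00394. Of the 9 markers of lymphatic endothelium and lymphoid stroma measured, of 10 listed, 3 read lower and 1 higher without overlap, and the mean level was 4.49 and 4.76 on the Hdc-/- arrays, against 4.86 and 4.93 on the Hdc+/+ arrays. The lymphatic vessel gene Lyve1, which some macrophages also express, read 6.75 and 6.50, against 7.05 and 7.23. Other stromal lists were lower too, with 5 of 9 blood endothelium, 5 of 9 fibroblast and 5 of 7 smooth muscle markers lower without overlap, against 0, 2 and 0 higher. Their part in the Ccl21 values was not tested.

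**Figure D3:**
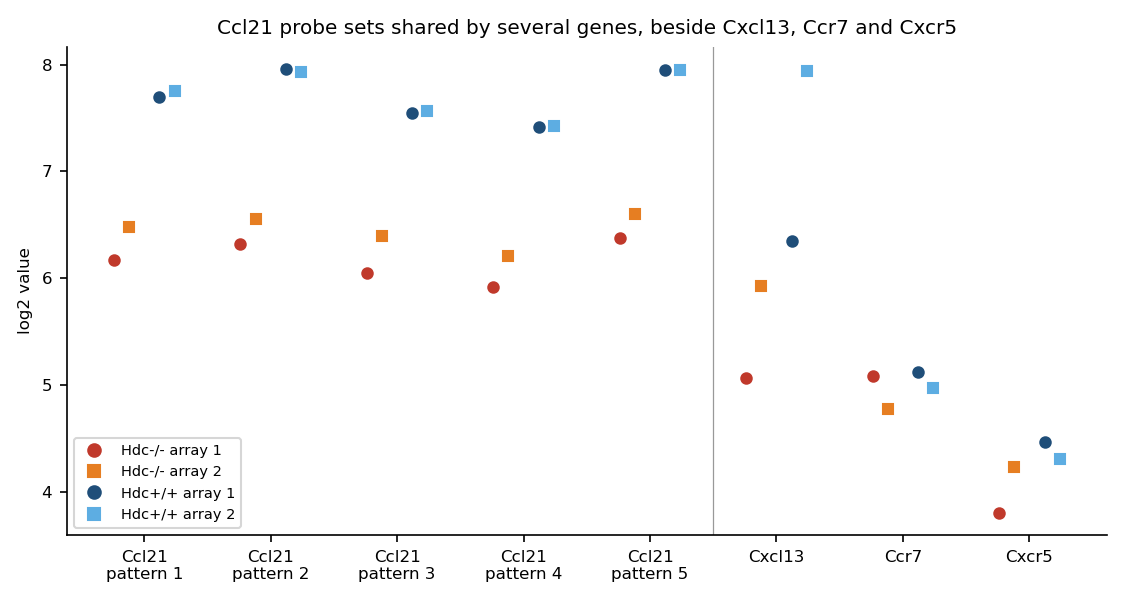
Log2 values (y axis) on each array for the 5 distinct Ccl21 probe set patterns, which several genes share, and for Cxcl13, Ccr7 and Cxcr5. The Ccl21 patterns sit between 5.92 and 6.60 on the Hdc-/- arrays and between 7.42 and 7.96 on the Hdc+/+ arrays, Cxcl13 spreads widely within the Hdc+/+ arrays, and Ccr7 overlaps.

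The promoter of Ccl21a is shown to let the copies of this family be compared. It lies at chr4:42773942-42774241 (GRCm38.p6, minus strand, RefSeq), written 5′ to 3′ along the gene.
Ccl21a promoter: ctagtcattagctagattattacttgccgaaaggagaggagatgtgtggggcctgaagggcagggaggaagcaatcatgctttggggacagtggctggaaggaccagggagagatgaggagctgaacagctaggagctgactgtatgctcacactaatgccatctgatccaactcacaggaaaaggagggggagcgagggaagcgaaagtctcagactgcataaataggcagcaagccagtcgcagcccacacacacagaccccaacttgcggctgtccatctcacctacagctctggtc
The promoter entry of the copy Ccl21d matched it at 297 of 299 aligned bases (99.3%), and that of the copy Ccl21b at 137 of 282 (48.6%). Mismatches carried no cost in this alignment, and the share that unrelated promoters reach was not measured. The 48.6% is therefore not read as likeness. None of the 5 sets of letters searched occurs in this window, so it has no capitals.

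Epithelial ligands were split. Cxcl14, a chemokine made by epithelium and fibroblasts, read 6.74 and 6.44 on the Hdc-/- arrays, against 6.01 and 5.84 on the Hdc+/+ arrays. Both Hdc-/- arrays lay above both Hdc+/+ arrays, with a difference of 0.66 (SE 0.19), or 1.58-fold, and an adjusted p of 0.453 by limma. It was 0.51 without Hdc-/- array 1 and 0.82 without Hdc-/- array 2. Ccl20, the epithelial ligand of Ccr6 over lymphoid follicles, read 4.86 and 4.71 on the Hdc-/- arrays, against 5.11 and 5.35 on the Hdc+/+ arrays, a difference of -0.44 (SE 0.18, unadjusted p = 0.0505, adjusted p = 0.585 by limma). Ccr6 itself differed by 0.04 (SE 0.29).

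Ccl25, the small intestinal ligand of the gut-homing receptor Ccr9, read 4.29 and 4.64 on the Hdc-/- arrays, against 4.60 and 5.65 on the Hdc+/+ arrays. Only Hdc+/+ array 2 stood apart, and the groups overlapped (-0.66, SE 0.37). The 13 intestinal epithelium markers averaged 4.88 and 4.94 on the Hdc-/- arrays, against 6.02 and 7.77 on the Hdc+/+ arrays, with 10 lower and 0 higher without overlap, so they too were highest on Hdc+/+ array 2; their part in the Ccl25, Ccl20 and Cxcl13 values was not tested. Ccr9 differed by 0.28 (SE 0.20). Ccl28, a mucosal ligand of Ccr10 that draws in plasma cells, read 6.77 and 5.68 on the Hdc-/- arrays, against 6.44 and 6.60 on the Hdc+/+ arrays, so the Hdc-/- arrays lay on both sides of the Hdc+/+ arrays (-0.30, SE 0.36). Ccr10 differed by 0.23 (SE 0.24), and Ccl27a, a skin-associated Ccr10 ligand, by -0.23 (SE 0.19); near-identical Ccl27 copies could share its signal.

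The promoter of Cxcl14 is shown because, among the members at an unadjusted p under 0.05 with an entry, it holds interferon-type letters. It lies at chr13:56296502-56296801 (GRCm38.p6, minus strand, RefSeq), written 5′ to 3′ along the gene, with capitals at matches to TTCNNNGAA and GAAANNGAA.
Cxcl14 promoter: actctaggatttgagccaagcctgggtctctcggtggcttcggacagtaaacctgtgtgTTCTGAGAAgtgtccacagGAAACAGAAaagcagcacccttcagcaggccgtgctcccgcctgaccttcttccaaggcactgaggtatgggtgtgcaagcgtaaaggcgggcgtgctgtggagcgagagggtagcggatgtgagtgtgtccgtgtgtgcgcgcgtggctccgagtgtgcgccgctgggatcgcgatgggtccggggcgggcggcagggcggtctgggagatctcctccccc
The first match begins 191 bases and the other 172 bases before the start site. TTCNNNGAA was held by 8.30% of all promoters and by 3 of the 37 members with an entry, and GAAANNGAA by 8.56% and by 7 of 37. Entries were counted as for TATAAA above. A match is a run of letters and not a shown binding site.

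Cxcl12, the stromal ligand that holds stem cells and leukocytes in niches, read 6.06 and 6.21 on the Hdc-/- arrays, against 6.16 and 6.58 on the Hdc+/+ arrays (-0.23, SE 0.20), with groups that overlapped. Its receptor Cxcr4, which also sits on most leukocytes, read 5.55 and 5.76 on the Hdc-/- arrays, against 5.18 and 5.10 on the Hdc+/+ arrays. Both Hdc-/- arrays lay above both Hdc+/+ arrays, and the gaps within a genotype were 0.21 and 0.07. The difference was 0.52 (SE 0.17), or 1.43-fold, with an unadjusted p of 0.0238 and a limma adjusted p of 0.502. Ackr3, the scavenging receptor that takes up Cxcl12, read 4.64 and 4.82 on the Hdc-/- arrays, against 5.29 and 5.14 on the Hdc+/+ arrays, a difference of -0.48, opposite in sign to Cxcr4. Cxcr4 was the 1 receptor of 17 at an unadjusted p under 0.05, and its promoter at chr1:128592250-128592549 (GRCm38.p6, minus strand, RefSeq) is shown for that reason, with capitals at TATAAA on either strand.
Cxcr4 promoter: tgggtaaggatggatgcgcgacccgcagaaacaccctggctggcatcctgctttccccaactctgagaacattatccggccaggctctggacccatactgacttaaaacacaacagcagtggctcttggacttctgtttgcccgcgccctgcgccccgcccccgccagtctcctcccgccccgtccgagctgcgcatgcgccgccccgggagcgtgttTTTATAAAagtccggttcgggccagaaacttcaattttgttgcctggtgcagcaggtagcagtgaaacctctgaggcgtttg
The match on the gene's own strand begins 30 bases before the start site and overlaps 1 on the opposite strand whose leftmost base lies 32 bases before it.

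Ligands of neutrophil and interferon-linked receptors differed little. The 5 ligands grouped here under Cxcr2, which draw in neutrophils, all had groups that overlapped, with a median of -0.13. Cxcl1 and Cxcl2, the main neutrophil attractants of the mouse, differed by -0.20 (SE 0.19) and -0.24 (SE 0.24), Cxcl3 by 0.02 (SE 0.23), Cxcl5 by 0.05 (SE 0.18) and the lung-associated Cxcl15 by -0.13 (SE 0.19). These 5 genes form 1 cluster on mouse chromosome 5. Cxcr1 and Cxcr2, the neutrophil receptors, differed by -0.05 (SE 0.20) and -0.03 (SE 0.24). Of the 12 neutrophil markers 2 read higher and 3 lower without overlap, with mean levels of 3.84 and 3.99 on the Hdc-/- arrays, against 3.89 and 3.72 on the Hdc+/+ arrays.

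The 3 ligands of Cxcr3, which interferon-gamma induces and which draw in effector T cells, lay a little above 0. Cxcl10 read 4.49 and 4.29 on the Hdc-/- arrays, against 4.03 and 4.20 on the Hdc+/+ arrays, without overlap and with a difference of 0.28 (SE 0.17, adjusted p = 0.709 by limma) that was 0.18 without Hdc-/- array 1. Cxcl9 and Cxcl11 differed by 0.17 (SE 0.17) and 0.28 (SE 0.31) with groups that overlapped, and the receptor Cxcr3 by -0.25 (SE 0.21). Over 13 other interferon-gamma-induced genes measured, of 15 listed, none of them a chemokine and Irf1 shared with the list of inducers below, the median was 0.36. Their mean level was 5.66 and 5.03 on the Hdc-/- arrays, against 4.80 and 4.99 on the Hdc+/+ arrays. Hdc-/- array 1 thus stood highest, and Hdc-/- array 2 lay close to Hdc+/+ array 2. At an unadjusted p under 0.05, 3 read higher and 1 lower, where 3.68% and 4.87% of all genes did so. Gbp2b at 2.66, Ido1 at 1.00 and Igtp at 1.02 lay above 0 and Iigp1 at -1.30 below it. This list was chosen with earlier results of these data known.

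The remaining ligands and receptors gave overlapping groups. Cx3cl1 and Cxcl16, chemokines tethered to the cell membrane, differed by 0.12 (SE 0.18) and 0.03 (SE 0.18), and Xcl1, made by T and NK cells, by 0.13 (SE 0.18). Cx3cr1, the receptor of tissue macrophages and patrolling monocytes, differed by 0.07 (SE 0.25), and Xcr1, the receptor of cross-presenting dendritic cells, by -0.17 (SE 0.19). Cxcr6, the Cxcl16 receptor on tissue-resident T cells, read 4.40 and 3.47 on the Hdc-/- arrays, against 3.33 and 3.73 on the Hdc+/+ arrays (0.41, SE 0.34), so 1 Hdc-/- array stood high and the other lay within the Hdc+/+ range. The receptor genes Ccr9, Cxcr6, Xcr1, Ccr1, Ccr3 and Ccr2 form a cluster on mouse chromosome 9, where differences ran from -0.22 to 0.41 and 1 gene read higher and 1 lower without overlap.

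Spread within a genotype was large beside the differences for most members. The difference exceeded the wider of both gaps between arrays of a genotype for 12 of 50 members (24%), against 26.5% of all genes. The median size of the difference was 0.23 and the median of the wider gap 0.41, against 0.17 and 0.32 over all genes. After Cxcl13, the widest gaps within a genotype were those of Ccl28 (1.09 between the Hdc-/- arrays), Ccl25 (1.05 between the Hdc+/+ arrays) and Cxcr6 (0.93 between the Hdc-/- arrays). Hdc-/- array 1 gave the highest value for 18 members (36.0%), against 27.3% of all genes, and the lowest for 15 (30.0%), against 25.4%. By level, 33 of the 50 members lay below the median of genes and 9 among the dimmest 25% of genes.

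Genes that dispose of, transmit or induce chemokine signals were read from lists chosen with earlier results of these data known. Over all genes 3.68% read higher by the unadjusted threshold of 0.05 and 4.87% read lower, which is the background of these counts. In the list of atypical receptors and platelet chemokines, all 7 differences lay below 0, with a median of -0.18, against 0.02 over all genes, and 2 were lower at an unadjusted p under 0.05. These were the platelet chemokine gene Ppbp, at 3.76 and 3.98 on the Hdc-/- arrays, against 4.86 and 4.63 on the Hdc+/+ arrays (-0.87), and Ackr3. The next smallest p belonged to Pf4 (-0.16) and to Ackr4 (-0.19), the scavenger of Ccl19, Ccl21 and Ccl25. Of 20 receptor signalling genes measured, of 22, 1 was higher at an unadjusted p under 0.05 and 0 lower. It was Dock2 (0.54), a leukocyte exchange factor for Rac. Pik3cg (0.69), Pik3r5 (0.46) and Rgs2 (-0.47) had the next smallest p. Of 19 cytokines and transcription factors that induce chemokines, of 21, 9 read higher and 1 lower without overlap, against 21.5% and 17.6% of all genes. By the unadjusted threshold 2 were higher and 0 lower. The interferon regulator Irf7 differed by 0.86 and the lymphotoxin gene Ltb, a cytokine gene of lymphoid tissue, by 0.49. Il1b (0.38) and Nfkb2 (0.39) followed.

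Among 12 processing and presentation genes, of 13, 1 was higher and 2 were lower by the unadjusted threshold of 0.05. Dpp4, a protease that trims and inactivates several chemokines, read 4.30 and 4.25 on the Hdc-/- arrays, against 5.76 and 6.45 on the Hdc+/+ arrays (-1.83). It is also abundant in intestinal brush border, whose markers lay lower on the same arrays, and their part in it was not tested. Mmp12, a macrophage elastase that cleaves chemokines, read 6.25 and 5.05, against 3.95 and 3.37 (1.99). Adam17, a sheddase of Cx3cl1, differed by -0.63, and Sdc1, a heparan sulphate carrier that binds chemokines, by 0.16. None of the genes in these lists passed limma's test over all genes.

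**Figure D4:**
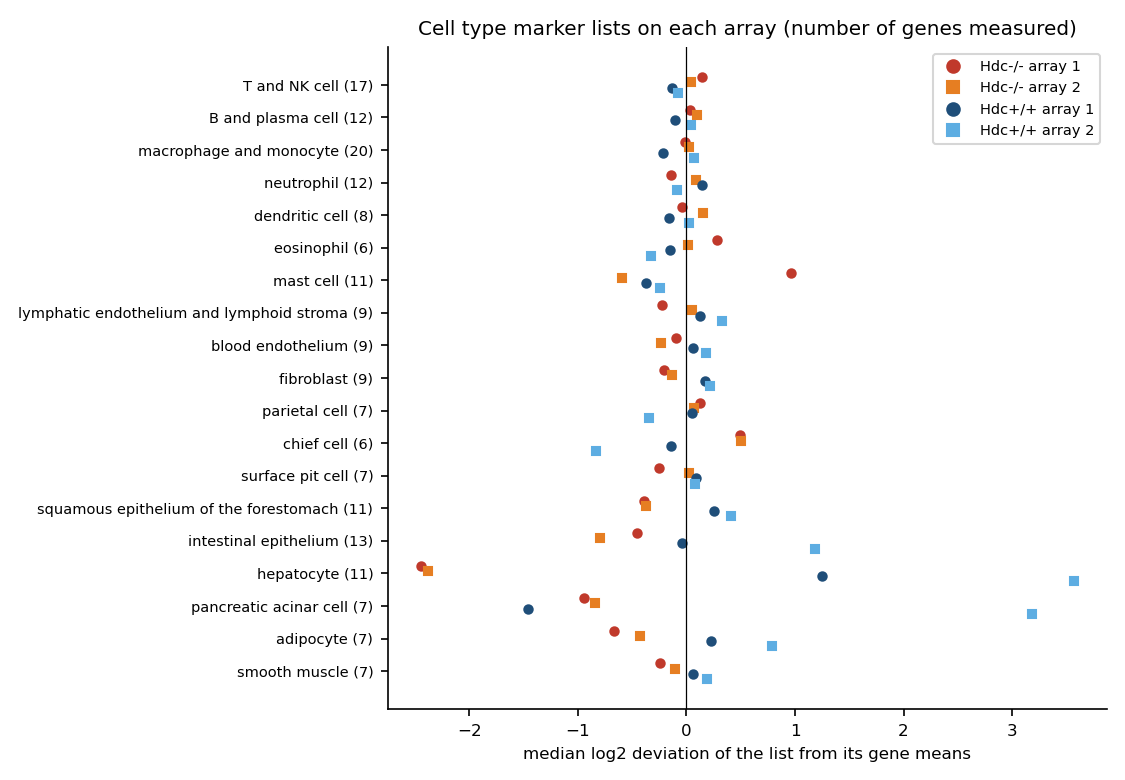
Median log2 deviation from the gene means (x axis) of each cell type marker list on each array, with the number of genes measured in brackets. Hepatocyte, intestinal and pancreatic acinar markers are highest on Hdc+/+ array 2, mast cell markers are highest on Hdc-/- array 1, and leukocyte lists other than mast cells lie closer to 0, the eosinophil list running from 0.28 on Hdc-/- array 1 to -0.32 on Hdc+/+ array 2.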

How the data were processed

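Log2 probe set values of 4 arrays were taken as the authors deposited them, and the submitters' processing notes list RMA, oligo and Affymetrix Power Tools. The sources used here give neither filters nor an annotation build. Of 41345 probe sets 23521 had 1 gene symbol in the platform annotation, and the one with the highest mean over the 4 arrays stood for a gene, which left 22180 genes. All 50 members matched the GRCm38.p6 gene table by Entrez identifier. Genotypes were compared by limma (version 3.58.1, R 4.3.3; lmFit and eBayes, no covariate), with Benjamini-Hochberg adjustment over all genes at 0.05. The fit was tested on simulated data. The members, gene lists and tests were chosen with earlier results of these data known. Every member may be named. Values on each array were to be given for up to 25 members, those at an unadjusted p under 0.05 and then those without overlap of groups, and 15 met this. Of related lists the 4 smallest p are named, and other list genes named were chosen after their values were seen. Alternatives changed the dim-gene filter, probe set choice, normalization, variance prior and covariates, or left out 1 array. Same-numbered arrays are not stated to share anything. Clusters are members whose start lies up to 150 kb from that of the next member.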

Additional observations from a re-analysis of the deposited data

How the results depend on the processing

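Limma passed 0 members under every alternative run, while the members at an unadjusted p under 0.05 numbered 5 higher and 1 lower in the analysis reported. All 15 members given in full kept their sign under every alternative that tested them. Their groups do not overlap, so leaving out 1 array could not change a sign. The dim-gene filters, the variance prior and the replicate block leave a difference as it is. The kept signs are therefore mostly a result of how these members were chosen. The Ccl8 adjusted p ran from 0.115 to 0.889. The members higher at an unadjusted p under 0.05 ranged from 2 to 8, and the lower ones from 0 to 3, with 1 array left out. The lower count was 2 with the dimmest 25% or 50% of genes left out, with probe sets averaged, with quantile normalization, with cyclic loess and with the replicate block, under which 4 were higher. The dimmest 50% filter tested 17 members, of which 5 were higher and 2 lower without overlap. Members without overlap ranged from 18 to 20 higher and from 10 to 17 lower with 1 array left out, since a lone array overlaps less easily. The ligand median ranged from 0.003 to 0.069 with 1 array left out. The receptor median was -0.042 without the dimmest 25% of genes and 0.021 with cyclic loess, and it ranged from 0.031 to 0.163 with 1 array left out. The cause of these shifts was not tested. Deviations of same-numbered arrays correlated at -0.119 over genes, so a block crossing the numbers was added after seeing the data, and it gave 4 members higher and 1 lower at that unadjusted threshold. Signal over background was not known for any probe set, and 4 ligands and 5 receptors lay among the dimmest 25% of genes. The ligands were Ccl12, Ccl26, Cxcl3 and Cxcl15, and the receptors were Ccr1, Ccr3, Ccr4, Ccr8 and Ccr9.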
